A study of Homo sapiens with 414 samples.

Results

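The genes described here are 40 genes whose protein products build ribosomes in the nucleolus, followed in single LNCaP cells that received a control siRNA or an siRNA against SULT2B1. All 40 have a row in a table of 36135 genes, and all 40 were among the 20326 genes with enough reads to be tested. They were chosen by name, and the choice was made with the knockdown against control differences in these same cells already known. Their differences between the arms are therefore given as a description. Where the fit across all genes called a member, the count is printed beside the share of all genes called, and nothing is read from it.

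Ribosomes are assembled in the nucleolus, a nuclear body that forms around the ribosomal RNA genes. RNA polymerase I transcribes a long precursor RNA, small nucleolar ribonucleoproteins (snoRNPs) guide its methylation and pseudouridylation, and separate sets of assembly factors then cut and fold it into the small and the large subunit. Abundant nucleolar proteins such as nucleolin and nucleophosmin accompany the precursor through these steps. Growing and dividing cells, cancer cells among them, are known for prominent nucleoli and high expression of this machinery.

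LNCaP is an androgen-responsive cell line derived from a prostate carcinoma. SULT2B1 encodes a sulfotransferase of sterols, and the series asks how its isoform b bears on death of these cells in response to TNF. Control cells received a non-targeting siRNA from Dharmacon and knockdown cells an siRNA against SULT2B1 from IDT, so the loss of the target and the source of the siRNA cannot be told apart. Cells were stained for viability and captured one by one on a Fluidigm C1 plate 48 h after transfection. No TNF or other agent is named for these cells, and both arms are the same parental line. Batches 1, 2 and 3 each held both arms, with 76, 66 and 67 control cells and 66, 65 and 61 knockdown cells.

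Since cells are not replicates, the cells of 1 batch and arm were pooled by adding their reads, which made 3 libraries per arm of 71630108 to 84359044 reads in genes. Single cells held 169244 to 2353816 reads. No label calls the batches separate cultures, so a test here weighs a difference against variation among batches that could be only technical. Levels of genes in pooled libraries are in CPM, reads scaled to the size and composition of the library. Sums of cell type markers and all levels and scores of single cells use CPM scaled to total reads alone. Either way a level is a share of the reads and not an amount of RNA per cell. The targeted gene, SULT2B1, gives a limited check of the labels: control batches 1, 2 and 3 held 152, 109 and 332 of its reads, and knockdown batches 13, 21 and 0. These are few reads for libraries of this size. The edgeR fit named below did not call the gene (log2 fold change -4.13, SE 1.43, edgeR adjusted p 0.268). The 10 luminal prostate markers summed to 7280 to 10181 CPM in control and 5371 to 8321 in knockdown, with KLK3 and KLK2 called lower, and no basal, neuroendocrine, blood or stromal marker exceeded 4.31 CPM. Cells with over 20% mitochondrial reads, a possible sign of damage, were 16.2% ± 9.995 of control and 4.12% ± 4.60 of knockdown cells (SD, n = 3; two-sided exact permutation test p = 0.2, smallest possible 0.1). Of all genes tested by the edgeR quasi-likelihood fit, 158 (0.777%) passed a Benjamini-Hochberg adjusted p of 0.05.

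The nucleolar genes did not move as a block. Of the 40, 26 had a log2 fold change (knockdown over control) below 0 and 14 above, with a median of -0.20 (-0.11 without control batch 2) against 0.0063 over all genes tested. The range ran from -1.56 to 0.52, and 5 genes differed by more than 1.5-fold, where 40.6% of all genes tested did so. The median over the members was -0.01 in batch 1, -0.43 in batch 2 and -0.01 in batch 3, so only in batch 2 did it lie clearly below 0. In 10 genes every knockdown library lay below every control library, where 10.1% of all genes tested did so. In 3 genes every knockdown library lay above, against 10.5% of all genes tested, and in 27 the arms overlapped. The fit called 4 members lower (NCL, NPM1, DDX21 and NHP2) and 0 higher, where it called 0.384% of all genes lower. The summed level of these 4 genes was 1885 ± 87.0 CPM in control and 906 ± 84.7 in knockdown. That of the other 36 was 4200 ± 267 and 3749 ± 175 (SD, n = 3). The split into 4 and 36 genes was made on this same contrast, so it describes the calls and adds nothing to them.

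**Figure D1:**
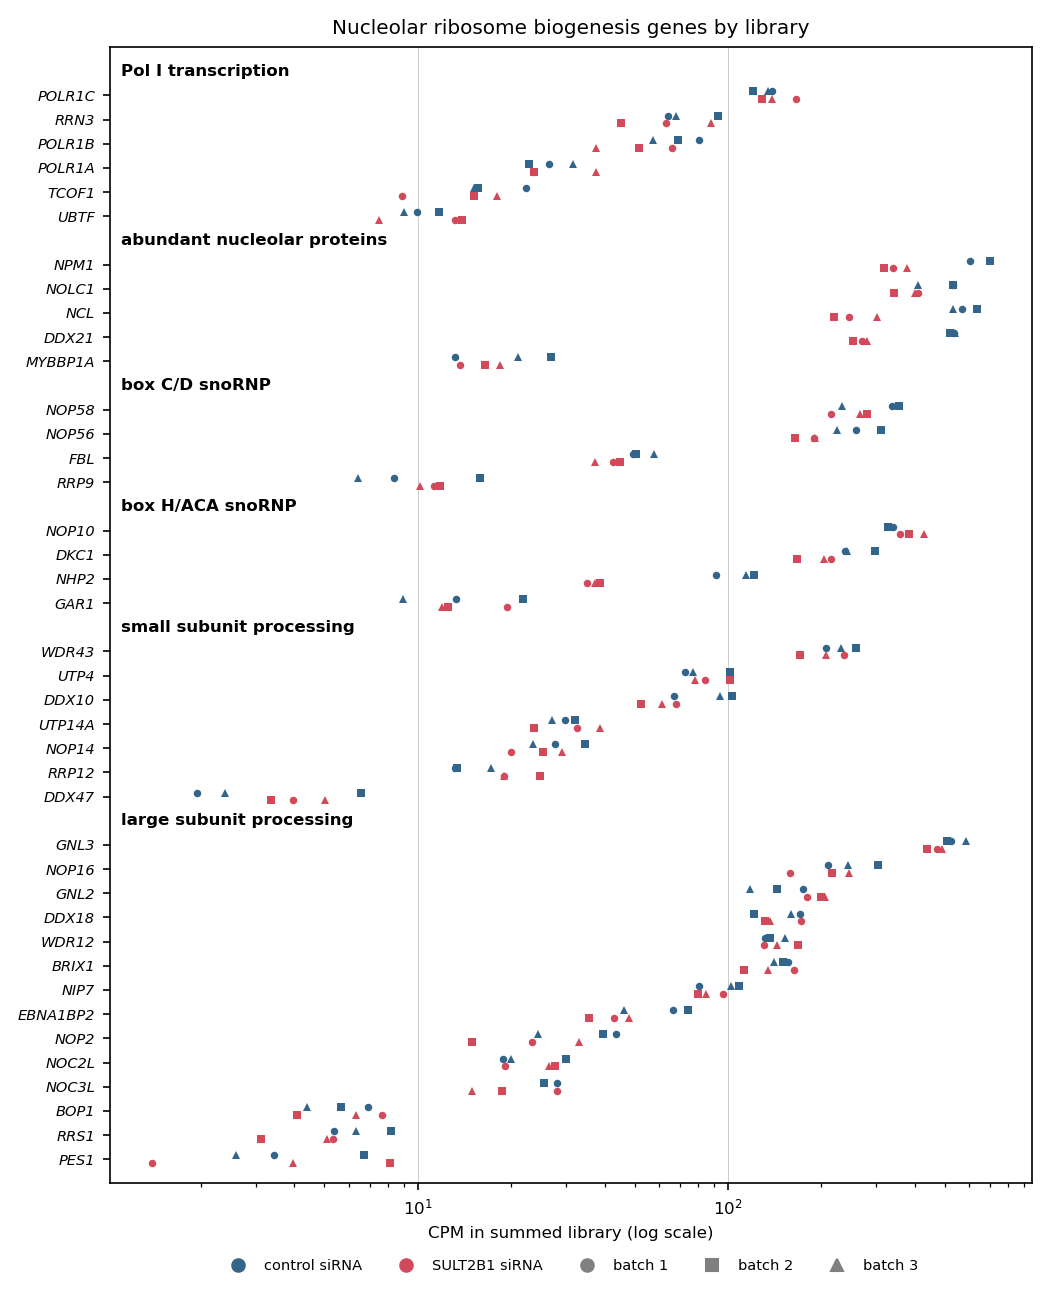
CPM of each of the 40 genes in the 3 control (blue) and 3 knockdown (red) libraries on a log axis, grouped by role, with a marker shape per batch. NCL, NPM1, DDX21 and NHP2 show a wide gap between the arms, while 27 genes show overlapping arms.

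All 5 genes grouped under the role of abundant nucleolar proteins had log2 fold changes below 0 (median -0.95). Of these, NCL, DDX21 and NPM1 had the largest differences of any member after NHP2. The role name is not a ranking by reads. MYBBP1A in this role averaged 18.3 CPM, while NOP10 and GNL3 averaged 361.3 and 502.5 CPM and stand in other roles. NCL encodes nucleolin, an RNA-binding protein of the ribosomal precursor. It stood at 569, 635 and 531 CPM in control batches 1, 2 and 3 and at 245, 219 and 303 CPM in knockdown. The arms are well apart, and the knockdown libraries averaged 44.2% of control (log2 fold change -1.18, SE 0.146). NPM1 encodes nucleophosmin, a chaperone of the outer nucleolus that binds histones and ribosomal proteins. It stood at 602, 696 and 699 CPM in control and 341, 318 and 376 in knockdown. Here too every knockdown library lay under every control library, at 51.8% of control on average (log2 fold change -0.95, SE 0.112). DDX21 encodes an RNA helicase that takes part in the transcription and processing of ribosomal RNA. It stood at 535, 519 and 540 CPM in control and 271, 253 and 280 in knockdown. The libraries of an arm lay close together, with SDs of 10.99 and 13.8 CPM around means of 531 and 268 (log2 fold change -0.99, SE 0.0937).

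NHP2, a core protein of the box H/ACA snoRNPs, had the largest change of any member. It stood at 91.7, 121 and 114 CPM in control and 35.1, 38.6 and 37.3 in knockdown. The 3 knockdown libraries agreed within a few CPM and averaged 33.9% of control (log2 fold change -1.56, SE 0.161). With batch as a block in the fit, DDX21 alone was called among the 40 members, against 0.059% of all genes called lower. With any 1 library left out, 1 to 3 of the 4 were called, DDX21 each time. The 4 genes had log2 fold changes below 0 in every alternative fit. They were picked as called lower in these same libraries and their arms do not overlap. That sign therefore follows from the choice and adds nothing.

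The 4 genes sit on 3 chromosomes. In GENCODE 29 on GRCh38, all protein coding, NCL (ENSG00000115053) is on the minus strand of chromosome 2, 231453531 to 231483641. NPM1 (ENSG00000181163) is on the plus strand of chromosome 5, 171387116 to 171411137. NHP2 (ENSG00000145912) is on the minus strand of the same chromosome, 178149460 to 178153967. DDX21 (ENSG00000165732) is on the plus strand of chromosome 10, 68956128 to 68985073.

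Their promoters are shown beside those of GNL2 and NOP10, a pair of members that were higher in every knockdown library. The pair was picked for display because its stretches differ in the motifs at the start site, so it does not stand for other members. RefSeq windows (GRCh38.p14) of 250 bases before to 50 after the start were found for 33 of the 40 genes. Each stretch below runs 5′ to 3′ from 100 bases before to 10 bases from the start site onward, with the start site as the first of those 10. Capitals mark the E-box CACGTG, the motif bound by MYC with MAX, or a C followed by 5 pyrimidines exactly at the start, the kind of start known from ribosomal protein genes. NPM1 and DDX21 have a second RefSeq start that is not shown.
NCL, chr2:231464475-231464584, minus strand: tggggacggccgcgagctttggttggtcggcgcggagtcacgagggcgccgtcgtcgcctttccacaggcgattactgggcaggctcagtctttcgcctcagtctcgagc
NPM1, chr5:171387749-171387858, plus strand: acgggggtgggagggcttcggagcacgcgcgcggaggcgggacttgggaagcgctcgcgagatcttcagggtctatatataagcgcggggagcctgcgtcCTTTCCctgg
DDX21, chr10:68956070-68956179, plus strand: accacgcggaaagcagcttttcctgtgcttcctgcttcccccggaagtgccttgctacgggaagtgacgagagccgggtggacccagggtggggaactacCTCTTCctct
NHP2, chr5:178153876-178153985, minus strand: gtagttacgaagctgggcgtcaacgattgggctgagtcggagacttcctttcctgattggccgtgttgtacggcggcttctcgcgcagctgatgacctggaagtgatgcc
GNL2, chr1:37595928-37596037, minus strand: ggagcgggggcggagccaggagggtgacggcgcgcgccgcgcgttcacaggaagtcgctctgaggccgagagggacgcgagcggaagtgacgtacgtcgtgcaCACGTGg
NOP10, chr15:34343127-34343236, minus strand: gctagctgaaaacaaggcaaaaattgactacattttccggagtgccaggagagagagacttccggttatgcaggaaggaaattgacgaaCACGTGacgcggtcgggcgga
In the stretches printed, the pyrimidine start appears in NPM1 and DDX21, and the E-box in GNL2 and NOP10. NCL and NHP2 hold neither.

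Over whole windows, 16 of the 33 members with a window (48.5%) had CACGTG in at least 1 of their windows. This was 23.8% of 122 other ribosome biogenesis genes, 12.1% of 11640 tested genes with a window and 8.77% of all genes in the promoter table. CACGTG is its own reverse complement, so a match counts for both strands, and the pyrimidine start was read on the gene's strand only. It was found in 4 members (12.1%: NPM1, DDX21, FBL and EBNA1BP2), in 5.35% of tested genes and in 73.0% of ribosomal protein genes. Of NCL, NPM1, DDX21 and NHP2, DDX21 had an E-box in the window of its other start, and the others had none in any window. Members with an E-box lay on both sides. GNL3 and FBL had one and were lower in every knockdown library, while GNL2 and NOP10 were higher. RRP12, also higher in every knockdown library, had no window. A match of letters is a description of the window, not evidence of binding.

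Part of the NPM1 reading rests on how reads were shared with its processed pseudogenes, copies of the mRNA inserted elsewhere in the genome. The table has 36 rows named as NPM1 pseudogenes, 8 of them with at least 1000 reads, and together they held 290534 reads against 232489 for NPM1 itself, or 55.5% of the family. NPM1P27 (chromosome 5, 93682838 to 93683667, annotated as a processed pseudogene) alone held 45304, 52534 and 52016 reads in control and 26770, 22708 and 30427 in knockdown. Those are close to the NPM1 reads of the same libraries, 44251, 50916 and 54273 in control and 27281, 23534 and 32234 in knockdown. The NPM1P27 transcript matches an NPM1 transcript at 819 of 834 aligned positions (98.2%), so reads cannot be assigned safely to one or the other. The log2 fold change of the NPM1P27 row was -1.01 (SE 0.107). NPM1P39, which matches at 95.1%, was at -1.05 (SE 0.183). Summed over NPM1 and all its pseudogene rows, the family stood at 1367, 1608 and 1554 CPM in control and 762, 708 and 821 in knockdown, a log2 ratio of means of -0.98. The family sum was as far apart between the arms as the NPM1 row.

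NHP2 has the same limit to a lesser degree. Its pseudogene NHP2P1 (chromosome 10, 92216332 to 92216793) matches at 97.6% and held 1159, 1648 and 1799 reads in control and 539, 622 and 575 in knockdown. With its 2 pseudogene rows added, the NHP2 family averaged 130 ± 19.5 CPM (SD, n = 3 libraries) in control. In knockdown it averaged 44.3 ± 2.57, a log2 ratio of -1.55. UTP14A and NOC2L were the other members with over 10% of their family's reads in a copy. For UTP14A that copy is UTP14C, a protein-coding gene, with 52.5% of the reads of the pair.

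**Figure D2:**
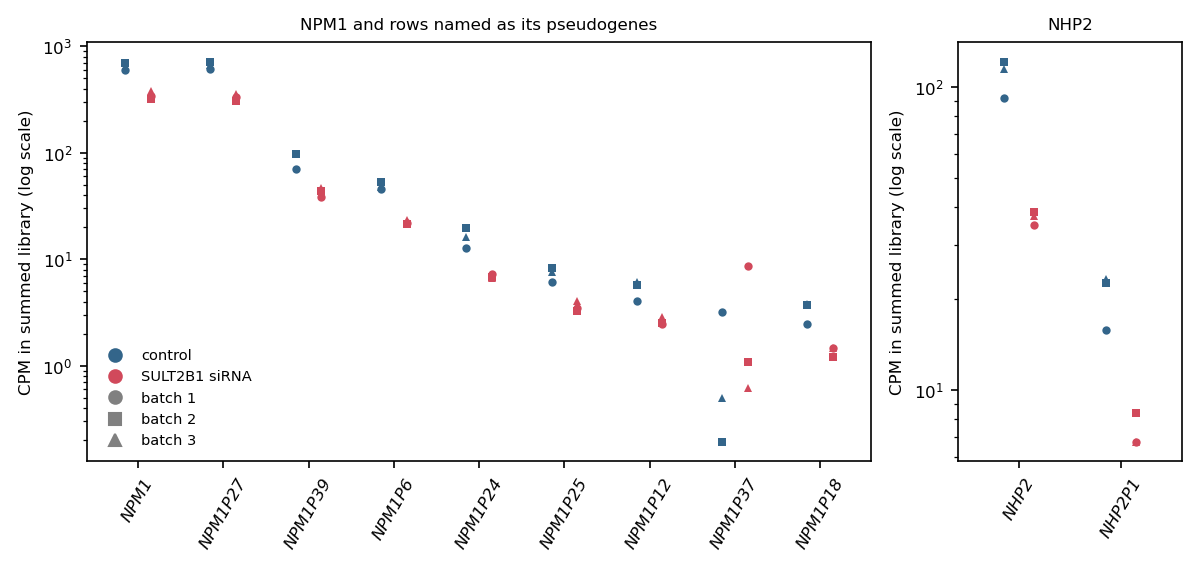
CPM on a log axis of NPM1 and the 8 pseudogene rows with at least 1000 reads (left) and of NHP2 with NHP2P1 (right), in 3 control (blue) and 3 knockdown (red) libraries. NPM1P27 lies at the level of NPM1 in both arms, and NHP2P1 falls beside NHP2.

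The other genes of the abundant nucleolar protein role changed less. NOLC1, a chaperone of snoRNPs also called Nopp140, stood at 529, 531 and 409 CPM in control and 408, 344 and 400 in knockdown. The lowest control and the highest knockdown library differed by under 1 CPM (log2 fold change -0.35, SE 0.137). MYBBP1A, a nucleolar protein that binds RNA polymerase I, overlapped between the arms (20.3 ± 6.84 and 16.2 ± 2.40 CPM).

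Members of 1 snoRNP did not move together. In the box H/ACA particle, which converts uridine to pseudouridine and shares its core proteins with telomerase, NHP2 stood at 33.9% of control. NOP10, its smallest core protein, stood at 340, 328 and 330 CPM in control and 359, 383 and 428 in knockdown. NOP10 was thus higher in every knockdown library (log2 fold change 0.23, SE 0.104). DKC1, the pseudouridine synthase dyskerin, stood at 238, 298 and 241 CPM in control and 215, 167 and 203 in knockdown. It was lower in every knockdown library, by less than NHP2 (log2 fold change -0.41, SE 0.146). GAR1, the remaining core protein, overlapped between the arms at 14.7 ± 6.59 and 14.6 ± 4.11 CPM.

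The box C/D particle places methyl groups on ribosomal RNA. NOP56, 1 of its scaffold proteins, stood at 259, 311 and 224 CPM in control and 190, 164 and 190 in knockdown, with no overlap (log2 fold change -0.55, SE 0.147). NOP58, its partner in the scaffold, stood at 337, 355 and 234 CPM in control and 215, 280 and 266 in knockdown. The control library of batch 3 lay inside the knockdown range (log2 fold change -0.28, SE 0.185). FBL, the methyltransferase fibrillarin, was at 52.6 ± 4.54 and 41.6 ± 3.77 CPM without overlap, and RRP9, a protein of the snoRNP needed to cut the precursor, at 10.2 ± 5.00 and 11.1 ± 0.863 with overlap.

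Genes of RNA polymerase I transcription showed overlapping arms in all 6 cases, with a median log2 fold change of -0.06. POLR1C, a subunit shared with RNA polymerase III, stood at 139, 121 and 134 CPM in control and 166, 129 and 139 in knockdown. RRN3, the factor that brings the polymerase to the promoter, stood at 63.8, 93.1 and 67.9 CPM in control and 63.1, 45.2 and 87.9 in knockdown. Its differences of log2(CPM + 1) were -0.02, -1.03 and 0.37 in batches 1, 2 and 3, and the sign of its fold change depends on the libraries used. POLR1A and POLR1B, the largest subunits, were at 105% and 75.2% of control. The promoter factor UBTF was at 113% and TCOF1, the treacle protein, at 79.0%.

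Factors of the small subunit had a median of 0.07, with 3 of 7 below 0. WDR43, a protein of the complex that joins the precursor while it is transcribed, stood at 206, 258 and 231 CPM in control and 236, 171 and 207 in knockdown. UTP4, of the same complex, stood at 72.8, 101 and 77.0 CPM in control and 84.0, 102 and 78.4 in knockdown, and both genes overlapped. RRP12, an export and processing factor, had the highest log2 fold change of any member, with 13.1, 13.4 and 17.2 CPM in control and 19.0, 24.8 and 19.0 in knockdown. Every knockdown library lay above every control library, at a low level (log2 fold change 0.52, SE 0.250). The helicase DDX10 was at 68.6% of control, and NOP14, UTP14A and the helicase DDX47 at 86.6%, 107% and 113%, all 4 with overlap.

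The 14 large subunit factors had a median of -0.14, with 9 below 0. GNL3, the GTPase nucleostemin, stood at 525, 507 and 585 CPM in control and 471, 439 and 488 in knockdown. The knockdown libraries were lower without overlap, at 86.5% of control (log2 fold change -0.21, SE 0.101). Its relative GNL2, also a GTPase, was higher in knockdown, at 175, 144 and 118 CPM in control and 179, 199 and 206 in knockdown (log2 fold change 0.42, SE 0.163). The highest control and the lowest knockdown library of GNL2 were only a few CPM apart, and both came from batch 1. NOP16 stood at 211, 304 and 243 CPM in control and 159, 216 and 245 in knockdown, with overlap. RRS1, a factor that helps add ribosomal proteins to the large subunit, was at a low level, with 5.38, 8.21 and 6.30 CPM in control and 5.34, 3.13 and 5.09 in knockdown (log2 fold change -0.55, SE 0.395). The PeBoW complex, which matures the large subunit RNA, stayed near control: BOP1 was at 107%, PES1 at 106% and WDR12 at 105% of it, all overlapping. NOP2, an RNA methyltransferase, and EBNA1BP2 were at 66.3% and 67.7% of control with overlap. NOC3L, NIP7, BRIX1, DDX18 and NOC2L lay between 78.0% and 107% of control, also with overlap.

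**Figure D3:**
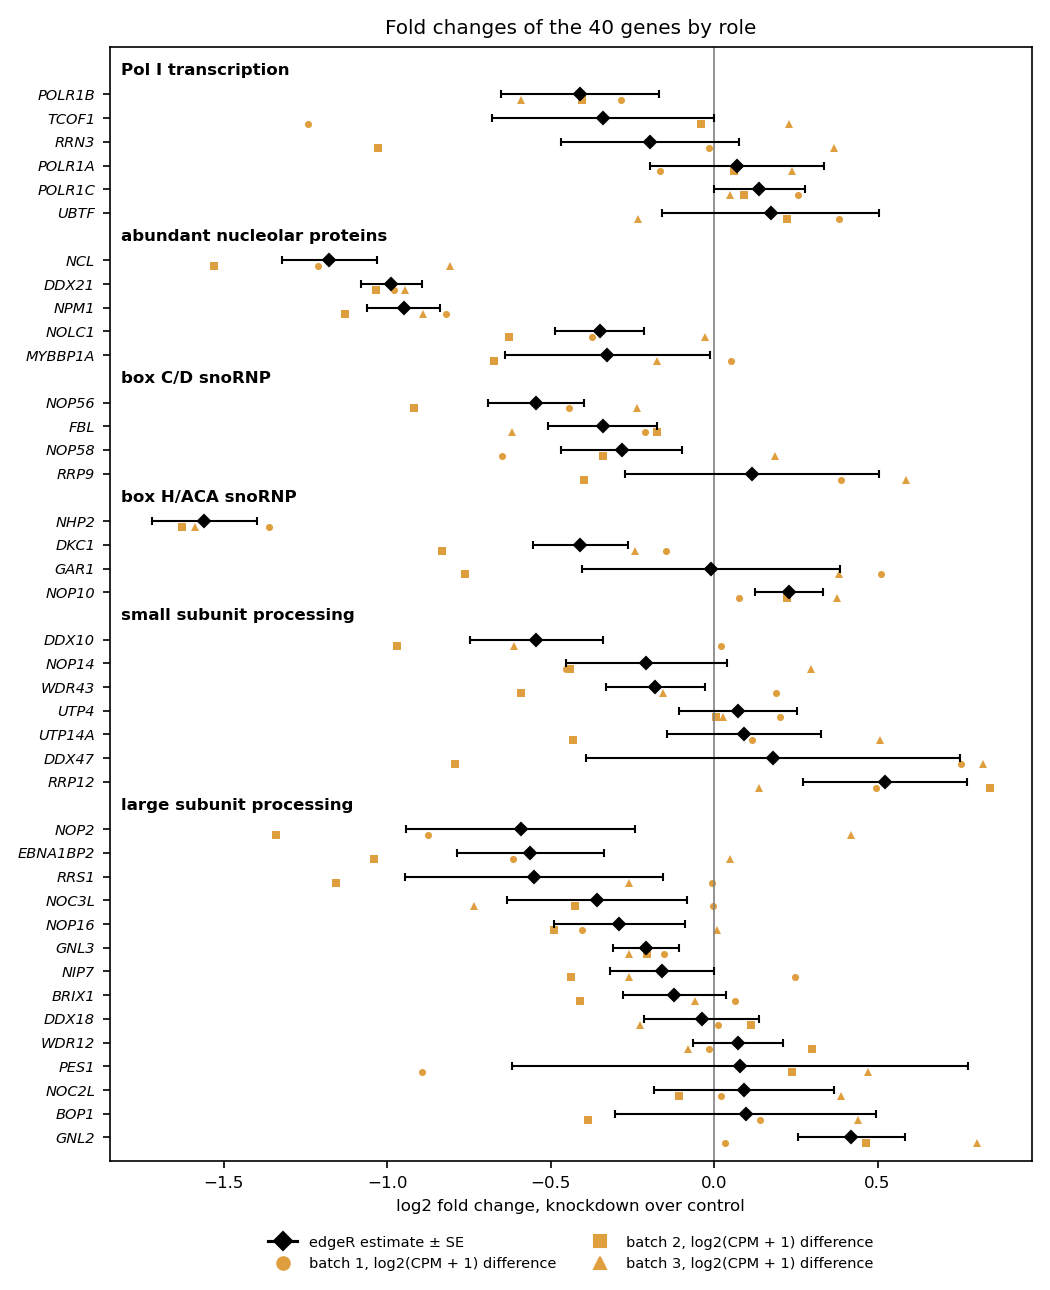
Log2 fold change of each gene (black diamond, edgeR estimate with its SE) and the difference of log2(CPM + 1) within each batch (orange), by role. For NCL, NPM1, DDX21 and NHP2 all 3 batch values lie left of -0.8, while most other genes have batch values on both sides of 0.

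Direction was also read within batches. In 17 of the 40 genes all 3 batches had the same sign, where 37.8% of all genes tested did so. For NHP2 the differences of log2(CPM + 1) were -1.36, -1.63 and -1.59 in batches 1, 2 and 3. For NCL they were -1.21, -1.53 and -0.81, the widest spread of the 4 genes. Outside these 4 the edgeR log2 fold changes of the members ranged from -0.59 to 0.52 with a median of -0.17. Their differences within single batches ranged wider, from -1.34 for NOP2 to 0.84 for RRP12, both in batch 2.

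Levels between genes were compared per kilobase of exon, with every annotated exon base of a gene counted once. This length can exceed that of the transcript expressed, so the ranks are approximate. For NPM1 the reads in its pseudogene rows are left out too. In control libraries NOP10 had the highest value, at 600 CPM per kb. NPM1 followed at 174, GNL3 at 162, NOLC1 at 123 and DDX21 at 106, and NCL and NHP2 held ranks 8 and 9 at 83.5 and 72.2. The lowest were UBTF, PES1 and DDX47 at 1.46, 0.932 and 0.720. By this measure NCL, NPM1, DDX21 and NHP2 were among the 9 highest of the 40. NOP10, GNL3 and NOLC1, also among the 9, had log2 fold changes of 0.23, -0.21 and -0.35. Whether level bears on the change was not tested.

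The lower levels of NCL, NPM1, DDX21 and NHP2 were spread over the cells. NCL, NPM1, NOP10 and GNL3 had a read in every one of the 401 cells. The median NCL level per cell was 496, 568 and 535 CPM in control batches 1, 2 and 3 and 186, 166 and 239 in knockdown. Of the 192 knockdown cells, 172 (89.6%) lay below the median control cell of their own batch. The corresponding counts were 177 (92.2%) for NPM1, 155 (80.7%) for DDX21 and 179 (93.2%) for NHP2. For the 30 other members whose median cell had a read in every library, the share ranged from 29.7% for NOP10 to 66.2% for NOP56, with a median of 52.6%. The 4 genes were set apart as called lower in these same cells, so shares above those of the rest follow from the choice. Cells of a library are not replicates, and the shares are descriptions. No single cell held over 16.9% of a library's reads of the 4 genes. This was not so for the rare members, where 1 cell held up to 38.2% of the reads of DDX47 in a library, and 14 members had a read in under 75% of cells on average.

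**Figure D4:**
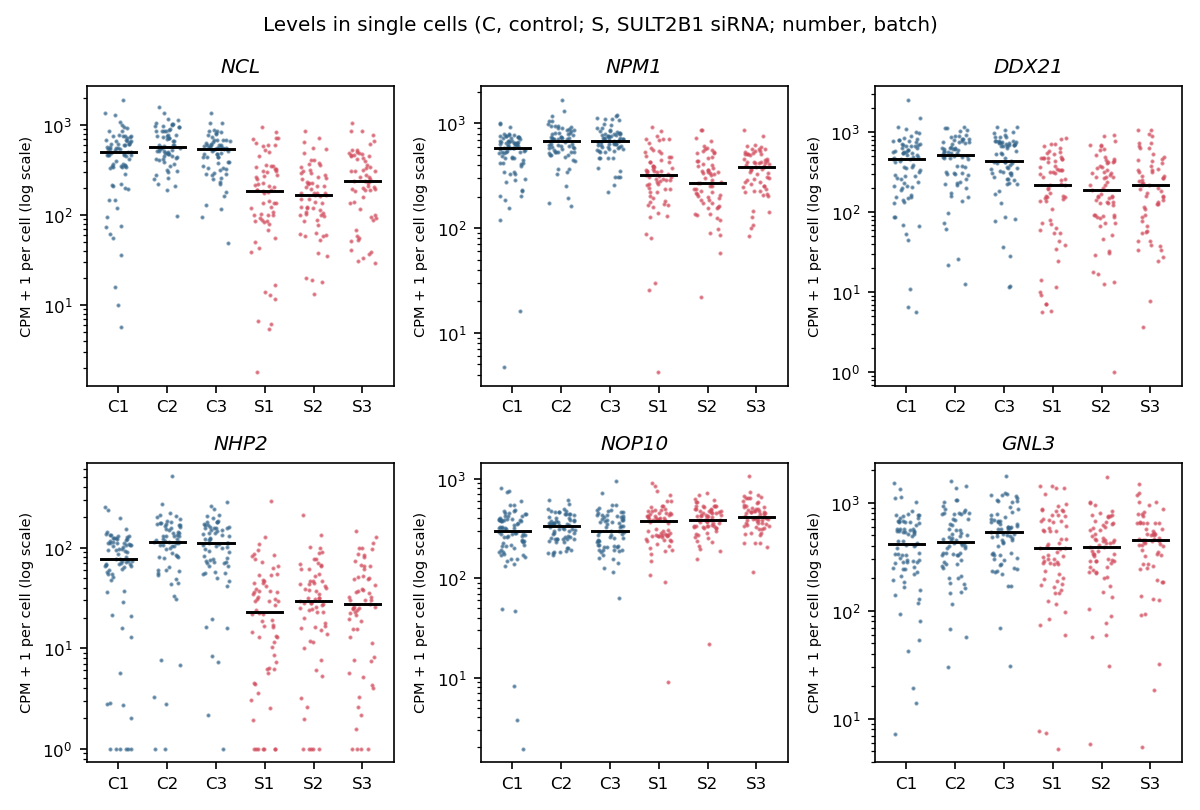
CPM + 1 per cell on a log axis for NCL, NPM1, DDX21, NHP2, NOP10 and GNL3, 1 point per cell and 1 column per library (C, control; S, SULT2B1 siRNA), with the median as a bar. For the first 4 genes the knockdown medians are lower and most knockdown cells lie below the control median of their batch, though the cells of the arms overlap. The NOP10 medians are higher in knockdown.

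A score per cell, the mean of log2(CPM + 1) over the 40 genes, was 4.54, 5.07 and 4.79 in control batches 1, 2 and 3 and 4.50, 4.56 and 4.72 in knockdown. The difference of -0.21 was smaller than the spread of the batch differences (SD 0.27). Over NCL, NPM1, DDX21 and NHP2 alone the score differed by -1.35 (SD 0.20), and over the other 36 by -0.08 (SD 0.27). These 4 were set apart because they were called lower in the same contrast, so a wider difference for them follows from the choice. Without the cells over 20% mitochondrial reads the difference over all 40 genes was -0.42, larger than its spread (SD 0.29). The score was then 5.09, 5.29 and 4.96 in control batches 1, 2 and 3 and 4.75, 4.56 and 4.78 in knockdown. Within a library, the score correlated with the mitochondrial share at r between -0.89 and -0.27 and with the number of genes with a read at 0.47 to 0.90. These correlations run over cells that share a library and differ in depth and quality, and their part in the difference between arms was not tested.

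Across cells of a library most single pairs of members correlated weakly. The pairs include those of the 14 members with a read in under 75% of cells on average. The mean Pearson correlation of log2(CPM + 1) over the 6 libraries had a median of 0.16 over the 780 pairs of members, and of 0.26 over the 120 pairs of the 16 members averaging at least 100 CPM. The 6 pairs among NCL, NPM1, DDX21 and NHP2 had a median of 0.44. The closest pair was NOLC1 with DDX21 at 0.53 (0.34 to 0.64 by library), followed by NPM1 with NHP2 at 0.51. Cells of a library share its depth and preparation, so these values are descriptions.

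Genes outside the members were counted from lists of the same pathway. Of 142 further ribosome biogenesis genes, 141 had a row and were tested, and 0 passed the edgeR test. At an unadjusted p under 0.05 there were 15, all lower in knockdown, where 13.5% of all genes tested passed in either direction and 7.08% were lower. DESeq2 called 8, all lower, where it called 7.09% of all genes in either direction and 3.85% lower. Their median log2 fold change was -0.03, with 77 below 0. By group the medians were 0.02 for 18 other genes of RNA polymerase I transcription, 0.04 for 12 snoRNP proteins and assembly factors, -0.08 for 47 small subunit factors, -0.04 for 49 large subunit factors and -0.06 for 15 genes of the RNA exosome, which trims the precursor. The largest differences were those of SDAD1, a large subunit factor, at 107 ± 6.97 and 44.9 ± 15.6 CPM (log2 fold change -1.25, SE 0.265, edgeR adjusted p 0.0983), and RRP1B at 50.9 ± 4.52 and 22.6 ± 6.50 CPM (-1.17, SE 0.246, edgeR adjusted p 0.0961). EIF6, which keeps the large subunit from joining the small one, was at 146 ± 34.7 and 69.4 ± 3.55 CPM (-1.07, SE 0.185, edgeR adjusted p 0.0583). Of the small subunit factors, WDR36 was at 114 ± 14.7 and 63.6 ± 1.52 CPM (-0.84, SE 0.141, edgeR adjusted p 0.0519).

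The ribosomal proteins, the products that these factors assemble, had differences centred near 0. Of 79 cytosolic ribosomal protein genes tested, 1 passed, with a median log2 fold change of -0.05. The gene was RPL32, at 389, 364 and 469 CPM in control and 163, 149 and 187 in knockdown (log2 fold change -1.29, SE 0.143, edgeR adjusted p 0.0114). It was also called with batch as a block (edgeR adjusted p 0.0327). No ribosomal protein gene was called without control batch 1, knockdown batch 1 or knockdown batch 2. Many ribosomal protein genes have processed pseudogenes, and how the reads of RPL32 were shared with such copies was not tested.

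Most cell cycle genes had lower levels in knockdown. Of 40 genes tested, 39 had log2 fold changes below 0, 31 had an unadjusted p under 0.05 (all lower, against 7.08% of all genes) and DESeq2 called 27 (all lower, against 3.85% of all genes). By adjusted p edgeR called only RRM2, a ribonucleotide reductase subunit (191 ± 48.8 and 48.2 ± 13.7 CPM, log2 fold change -1.98, SE 0.270, adjusted p 0.0251). RRM2 was not called with batch as a block (edgeR adjusted p 0.153) or with any 1 library left out. The median was -0.87 for the 20 S phase genes and -1.33 for the 20 genes of G2 and M phase. By batch, the medians of the differences of log2(CPM + 1) were -1.01, -1.15 and -0.36 for S phase and -0.82, -2.91 and -0.65 for G2 and M phase. Both were lowest in batch 2, the batch in which the median of the nucleolar genes was lowest too. Across cells within a library the nucleolar score correlated with the S phase score at r between 0.39 and 0.62 and with the G2 and M score at 0.32 to 0.43. Correlations of this size were not particular to phase scores. They were 0.83 to 0.95 with a score of the other pathway genes and 0.33 to 0.78 with a ribosomal protein score. With the number of genes with a read they were 0.47 to 0.90. For single genes the correlation with the S phase score was 0.23 to 0.52 for NCL, 0.10 to 0.49 for NPM1, 0.19 to 0.40 for DDX21 and 0.17 to 0.56 for NHP2. It was -0.19 to 0.21 for NOP10 and -0.14 to 0.18 for GNL3. With the G2 and M score it was 0.14 to 0.42 for NCL, 0.03 to 0.51 for NPM1, 0.19 to 0.34 for DDX21 and 0.18 to 0.49 for NHP2. For NOP10 and GNL3 it was -0.34 to 0.17 and -0.12 to 0.07. The part of cell cycle position in the differences of the nucleolar genes was not tested.

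**Figure D5:**
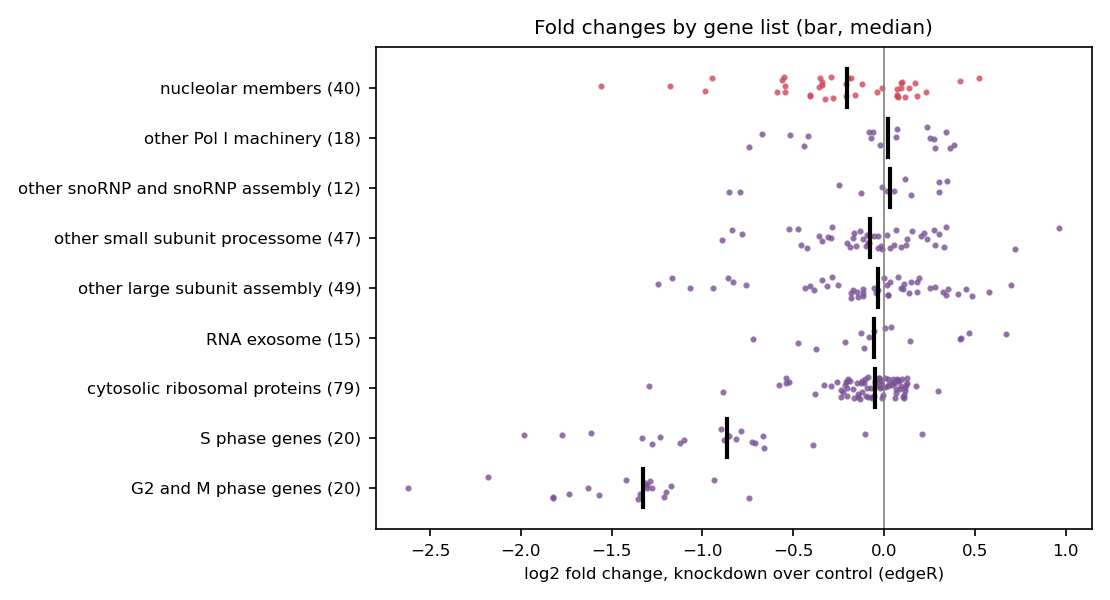
EdgeR log2 fold changes of the 40 nucleolar members (red) and of genes in 8 other lists (purple), with the number of genes in brackets and a black bar at the median. The other pathway lists and the ribosomal proteins have medians near 0, and both cell cycle lists have medians below -0.8.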

How the data were processed

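Per the labels' protocols, cells were captured on a Fluidigm C1 plate, sites with no cell, several cells or a dead cell were dropped after microscopy, which is how doublets were treated, and libraries were read on a HiSeq2500. The authors deposited counts: whole reads per gene and cell, without molecular identifiers. The submitters' processing notes name FastQC 0.11.3, TopHat2 2.1.0, HTSeq 0.6.1, edgeR 3.2.2 and build GRCh38.p3. Sources used here give neither the annotation release nor the use of strand, and genes that overlap or share sequence can swap reads. Of 414 samples listed, 401 single cells were used. Left out were 4 labelled cells without a column, 9 samples of other kinds and 4 columns of values.

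Counts were summed per arm and batch. The fit was edgeR 4.0.16 quasi-likelihood (R 4.3.3) with TMM scaling, filterByExpr (minimum count 10), no block and Benjamini-Hochberg adjustment over 20326 genes. It was also run on simulated counts of pooled libraries that held no batch effect, and no result here rests on that run. Alternatives were DESeq2 1.42.0, RLE scaling, no filter, batch as a block, limma 3.58.1 with equal weight per cell, fewer cells and each library left out. The word Batch in the labels pairs the libraries. Within a batch, the deviations of both libraries from their arm means correlated at 0.0551, -0.00369 and -0.0019. Gene names came from the name table (34891 identifiers) or GENCODE 29 (257), coordinates and exon lengths from GENCODE 29, and promoters from RefSeq. Pseudogene rows are those named after a member, matched with blastn to the member's transcripts.

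The members and lists were chosen with earlier results of these data known. Described in full are the 2 members of each of 6 roles with the highest CPM and the 8 largest changes among members averaging at least 5 CPM with 1 direction in 3 batches. From each other list up to 4 genes could be named, called ones first and then the largest changes. GAR1, FBL and other members are given by mean or percent. Python 3.11.15 was used with pandas 2.3.3 and matplotlib 3.10.9.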

Additional observations from a re-analysis of the deposited data

How the results depend on the processing

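The count of genes called depended on the method: 1442 with DESeq2, 309 without the filter on low counts, 38 with batch as a block and 242 with equal weight per cell, against 158, and 46 to 69 with 1 library left out. Members called were 1 with the replicate block and 1 to 3 with 1 library left out. They were NPM1, DDX21 and NHP2 without control batch 1, DDX21 and NHP2 without control batch 2 or control batch 3, DDX21 without knockdown batch 1 or knockdown batch 2, and NCL and DDX21 without knockdown batch 3. DESeq2 called NOP56 besides the 4. Other ribosome biogenesis genes called were 8 with DESeq2, 4 without the filter, 1 with equal weight per cell and 3 without cells over 20% mitochondrial reads. Ribosomal protein genes called were 2 with DESeq2 and 0 to 1 with 1 library left out. Cell cycle genes called were 27 with DESeq2, 4 without the filter, 0 with the block, 3 with equal weight per cell and 0 with any 1 library left out. The cause was not tested, except that leaving out a library also leaves fewer samples. The median fold change of the 40 members and the difference in score per cell moved by less than the spread under every alternative run for them. For the score that spread is wide (SD 0.27). Its difference went from -0.21 to -0.42 without cells over 20% mitochondrial reads. Over the 18 members described in full, 209 of 216 alternative values moved by less than the spread, and 4 changed sign, all of RRN3 or UTP4. Reads are amplified copies, so counting error is a lower limit of the error, and for members at a few CPM a handful of cells sets the level.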
